A study of Homo sapiens with 9 samples.

Results

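Of the 19569 genes in the deposited count table of activated Jurkat cells, 58 had higher mRNA levels 5 h after activation and then lower levels at 12 h than before activation. They include the transcription factor genes MYC, FOSL2, JUN and PER2, 13 genes for the production of ribosomes, and 8 genes for translation and tRNA modification. Which genes belong depends on how libraries are scaled: with TMM scaling, described below, 29 of the 58 were kept, and JUN was not. The 58 were chosen on these values: mean CPM (counts divided by the library total, times 1e6) of 10 or more at one time, a 5 h mean at least 1.2 times the 0 h mean and a 12 h mean at most 0.8 times it. In addition, the lowest 5 h library had to exceed the highest 0 h library, and the highest 12 h library had to stay under the lowest 0 h library. Of 9768 genes that met the CPM minimum, 19.2% met the 5 h conditions, 30.0% met the 12 h conditions and 0.594% met both. The direction and the separation of the groups are therefore what the choice fixed, and the levels and ratios below describe the genes and are not tested.

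The cells were Jurkat Clone E6-1 (ATCC TIB-152), an established human leukaemic T-cell line that is 1 clone, and their mRNA was sequenced in 9 libraries: 3 of non-activated control cells (0 h), 3 of cells activated for 5 h and 3 of cells activated for 12 h. For activation, anti-CD3 was bound to the plate (10 µg/mL) and anti-CD28 was given in the medium (5 µg/mL). The design text calls the 3 libraries of a time biological replicates. None of the 9 libraries holds cells kept without antibody to a later time, so activation and time in culture cannot be told apart. Library totals were 4222258 to 9359187 counts, both at 12 h. The T-cell genes CD3D, CD3E, CD28 and LCK were at 548 CPM or more in every library. CD4, also a T-cell marker, was at 1.60 to 10.9 CPM, and of 5 B-cell markers only CD79A exceeded 1 CPM (85.8 to 213 CPM). All 11 T-cell markers together summed to 6676 to 7611 CPM at 0 h, 6525 to 7274 at 5 h and 6439.6 to 7342 at 12 h. Single markers within this sum moved in opposite directions. Mean CPM at 0 h, 5 h and 12 h was 784, 344 and 329 for CD3G and 1605, 2451 and 2524 for PTPRC. The 5 B-cell markers summed to 169 to 213, 85.9 to 116 and 128 to 152 CPM, and the other 5 marker lists stayed under 15.2 CPM. The part of these marker levels in the results below was not tested.

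A T cell that receives signals through CD3 and CD28 first transcribes immediate-early genes, among them FOS, JUN and EGR family members, and then genes for growth. MYC, with its partner MAX, binds E-box sequences (CACGTG) and is known to act on genes for RNA polymerase I, ribosome assembly and translation. Ribosomes are built in the nucleolus: RNA polymerase I makes the ribosomal RNA precursor, and assembly factors fold, cut and modify it. Many of the mRNAs for these regulators are short-lived, and AU-rich stretches in the 3′ untranslated region are known to shorten mRNA life.

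Because the 58 include MYC and genes of ribosome production, the 300 bases around their annotated starts (250 before, 50 after) were searched in RefSeq promoters (GRCh38.p14), of which 51 of the 58 genes had one. The E-box CACGTG, which reads the same on both strands, was found in 13 of the 51, or 25.5%. It was found in 10.8% of 8084 promoters of genes with mean CPM 10 or more at one time, and in 7.43% of all 27305 promoters in the table. Of the 13, 5 belonged to the 8 genes of ribosome production with a promoter, 4 were transcription regulators (BCOR, GTF2H1, NFIX and BEND3), 1 was the tRNA modification gene PUS7, and 3 had other roles (TDG, NT5DC3 and ST7). The share among genes of ribosome production outside the 58 is not given here, and roles were assigned after the values were seen. Whether 5 of 8 is particular to the 58 therefore cannot be told. The 5 of ribosome production are shown here with the E-box in capitals, since they share it, and FOSL2 is shown with the AP-1 motif TGACTCA in capitals, since AP-1 is the factor its own protein forms.
WDR43, chr2:28894417-28894716 (+ strand): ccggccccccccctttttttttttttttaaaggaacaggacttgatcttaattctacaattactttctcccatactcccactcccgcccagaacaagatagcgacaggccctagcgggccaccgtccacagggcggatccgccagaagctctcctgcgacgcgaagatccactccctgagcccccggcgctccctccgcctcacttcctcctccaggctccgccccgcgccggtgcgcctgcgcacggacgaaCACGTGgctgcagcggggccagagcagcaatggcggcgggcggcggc
USP36, chr17:78840765-78841064 (- strand): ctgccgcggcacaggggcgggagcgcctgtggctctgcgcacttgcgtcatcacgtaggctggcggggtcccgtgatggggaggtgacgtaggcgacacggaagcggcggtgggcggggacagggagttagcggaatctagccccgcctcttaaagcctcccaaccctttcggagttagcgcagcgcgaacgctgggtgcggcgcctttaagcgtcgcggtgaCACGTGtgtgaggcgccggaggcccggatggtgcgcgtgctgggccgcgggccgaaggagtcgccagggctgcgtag
UTP4, chr16:69132399-69132698 (+ strand): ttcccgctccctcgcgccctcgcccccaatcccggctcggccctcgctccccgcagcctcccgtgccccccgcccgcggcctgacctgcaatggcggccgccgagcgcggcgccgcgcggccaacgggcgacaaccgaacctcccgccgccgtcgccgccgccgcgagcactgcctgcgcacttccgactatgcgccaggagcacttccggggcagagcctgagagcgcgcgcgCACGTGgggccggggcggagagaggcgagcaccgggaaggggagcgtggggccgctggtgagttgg
PWP1, chr12:107685549-107685848 (+ strand): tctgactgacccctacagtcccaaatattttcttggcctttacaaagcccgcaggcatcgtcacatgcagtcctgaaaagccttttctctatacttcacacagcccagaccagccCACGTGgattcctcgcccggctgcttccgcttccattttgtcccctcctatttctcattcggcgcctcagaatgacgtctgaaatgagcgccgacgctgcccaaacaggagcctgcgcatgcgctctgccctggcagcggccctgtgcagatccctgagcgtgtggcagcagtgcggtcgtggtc
PNO1, chr2:68157638-68157937 (+ strand): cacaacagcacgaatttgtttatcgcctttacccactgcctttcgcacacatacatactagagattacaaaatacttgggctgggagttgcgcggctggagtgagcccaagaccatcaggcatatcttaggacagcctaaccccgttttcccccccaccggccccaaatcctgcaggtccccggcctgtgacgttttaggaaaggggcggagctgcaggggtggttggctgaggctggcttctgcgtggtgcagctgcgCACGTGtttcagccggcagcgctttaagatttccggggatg
FOSL2, chr2:28392608-28392907 (+ strand): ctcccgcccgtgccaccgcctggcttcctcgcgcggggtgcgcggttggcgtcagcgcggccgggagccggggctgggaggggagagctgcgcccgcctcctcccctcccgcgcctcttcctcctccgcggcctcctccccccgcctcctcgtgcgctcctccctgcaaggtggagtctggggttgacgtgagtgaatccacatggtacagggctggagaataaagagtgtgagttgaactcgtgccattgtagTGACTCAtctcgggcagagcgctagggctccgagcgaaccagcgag
Each of the 6 promoters held 1 match to the motif in capitals. The AP-1 motif, searched as TGAGTCA or TGACTCA on both strands, was in 3 of 51 promoters (5.88%), those of FOSL2, NEDD4 and GTF2H1, against 2.54% of the 8084 and 4.92% of all promoters. The ETS motif CCGGAAG was in 8 of 51 (15.7%), against 22.2% and 10.7%, and the CCAAT box in 18 of 51 (35.3%), against 37.4% and 35.7%. The median GC content of the promoters was 65.7% for the 51 and for the 8084. None of the 4 motifs contains another, and these shares were not tested. A match does not show that MYC or any other protein binds there. MYC itself was among the genes of the 58 without a promoter, so its own promoter was not searched.

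The levels of the 58 genes changed by modest factors. The ratio of the 5 h to the 0 h mean had a median of 1.304 and ran to 3.22, and 9 genes reached 1.5. The ratio of the 12 h to the 0 h mean had a median of 0.726 and went down to 0.397, and 7 genes were at 0.6 or less. From 5 h to 12 h the median ratio was 0.541. The 58 together held 0.571% of a library's counts on average before activation, 0.759% at 5 h and 0.412% at 12 h. In bulk RNA, fewer cells that express a gene and less of its RNA per cell cannot be told apart, and these shares do not give the amount of RNA per cell.

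**Figure D1:**
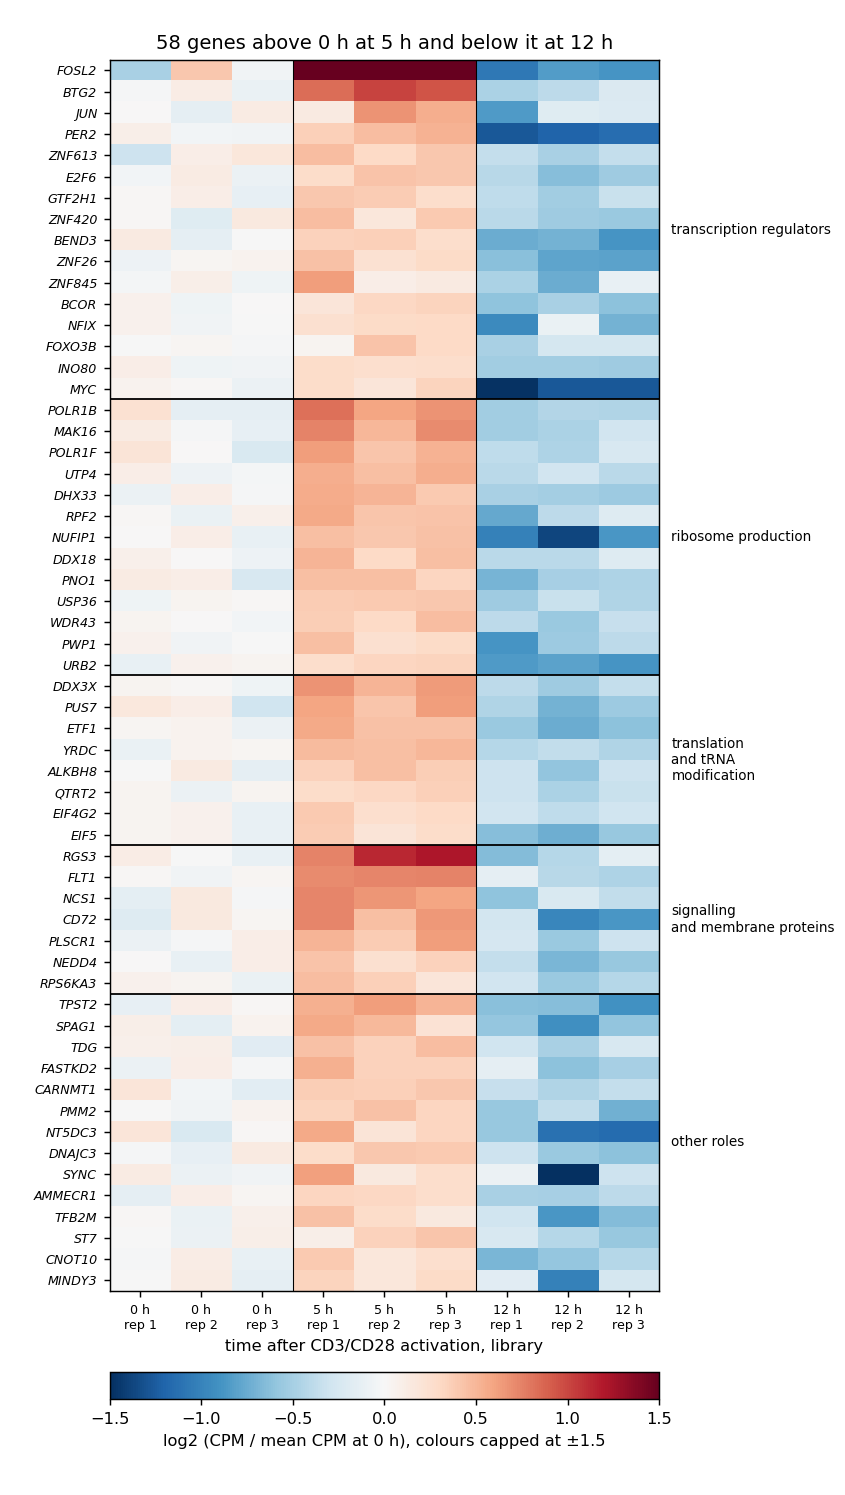
Heat map of the 58 genes (rows, grouped by role and ordered by the 5 h ratio) in the 9 libraries (columns), as log2 of CPM over the mean 0 h CPM of the gene, with colours capped at 1.5. The 5 h columns are red and the 12 h columns blue in every row, as the choice requires, and MYC, PER2 and NUFIP1 are the 3 lowest rows at 12 h.

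In edgeR's quasi-likelihood test over 12036 genes with TMM scaling (which sets each library's scale from the bulk of genes), all 58 were tested. At an adjusted p under 0.05, 56 were called higher at 5 h than at 0 h, where 24.9% of all genes tested were called higher, and 44 were called lower at 12 h than at 0 h, where 24.8% were called lower. All 58 were called lower at 12 h than at 5 h, where the share over all genes was 18.0%. Nothing can be read from these counts, because the genes were chosen on the same contrasts. The 14 genes not called lower at 12 h were DDX18, POLR1F, NCS1, BTG2, FOXO3B, RGS3, ZNF845, MINDY3, AMMECR1, PLSCR1, JUN, ST7, ZNF613 and SYNC, and the 2 not called at 5 h were MINDY3 and SYNC. On the TMM scale the log2 fold changes of the 58 ran from 0.38 to 1.82 at 5 h against 0 h (median 0.50, and 0.00 for all genes tested). At 12 h against 0 h they ran from -1.22 to -0.21 (median -0.37, and 0.00 for all genes tested).

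Scaling matters for which genes belong. Relative to library totals, TMM moved every 5 h to 0 h ratio up by 0.12 and every 12 h to 0 h ratio up by 0.11 on the log2 scale. With TMM library sizes in the rule, 59 genes were kept, of which 29 were among the 58. Among those lost were JUN and, of ribosome production, DDX18, MAK16, POLR1F, RPF2 and UTP4. Of translation and tRNA modification, EIF4G2, DDX3X, QTRT2, YRDC and ALKBH8 were lost. On that scale all 58 still had means above 0 h at 5 h (lowest ratio 1.31) and below it at 12 h (highest ratio 0.862), but 24 had a 12 h ratio over 0.8 and 14 had libraries that overlapped the 0 h range. The 16 genes kept with TMM, with DESeq2 size factors and without each of the 9 libraries in turn were DHX33, DNAJC3, E2F6, ETF1, FOSL2, NEDD4, NUFIP1, PER2, PMM2, PNO1, POLR1B, PUS7, PWP1, SPAG1, TPST2 and USP36.

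**Figure D2:**
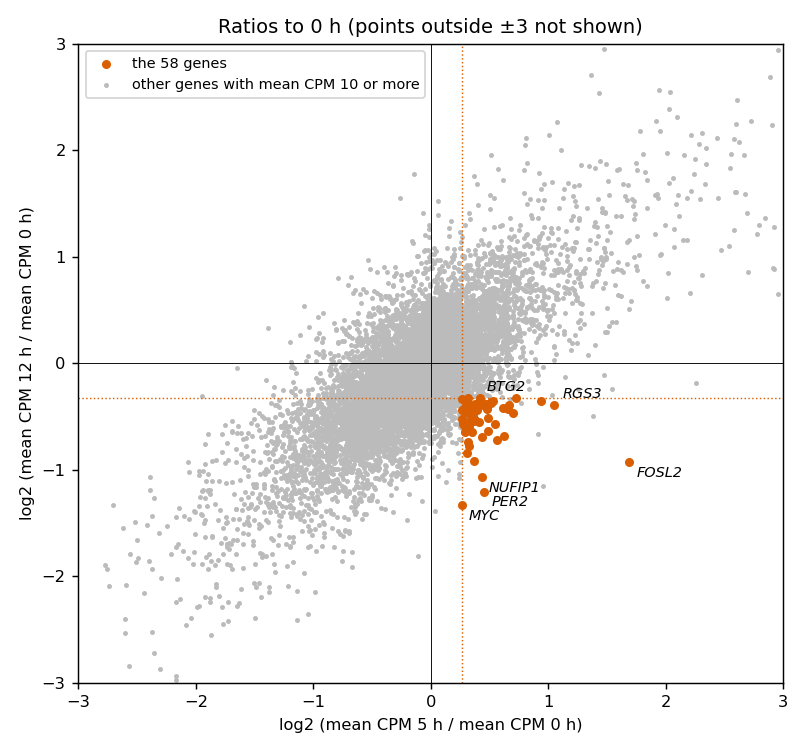
Log2 ratio of the 12 h to the 0 h mean CPM (vertical) against that of the 5 h to the 0 h mean (horizontal) for genes with mean CPM 10 or more at one time, with the 58 genes in orange and the fold limits 1.2 and 0.8 as dotted lines. The 58 fill the lower right corner, most of them close to the limits, with FOSL2 (ratio 3.22 at 5 h) and MYC (0.397 at 12 h) farthest out.

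The limits cut through a continuous range of values. Just inside the 5 h limit were MYC, INO80 and MINDY3, with ratios of 1.2002, 1.2013 and 1.2024, and just outside were PFKFB3, GUCY1A1 and STARD7, with 1.1972, 1.1966 and 1.1960. Just inside the 12 h limit were EIF4G2 (0.7991), DDX18 (0.7965) and FLT1 (0.7963), and just outside were RRP15 (0.8045), NOLC1 (0.8087) and PLAGL2 (0.8093), of which RRP15 and NOLC1 also act in ribosome production. Nearest the CPM minimum were CD72, SYNC and ZNF613 inside, with highest means of 11.0, 11.2 and 11.9 CPM, and SNX33, PER3 and RSC1A1 outside, with 9.52, 8.79 and 8.69 CPM.

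Among the transcription regulators, MYC, the growth-promoting factor, was above its 0 h level by a small margin at 5 h and far below it at 12 h. MYC had 231, 226 and 210.2 CPM at 0 h, 269, 253 and 279 CPM at 5 h, and 79.8, 92.5 and 92.4 CPM at 12 h. The 5 h libraries lay just above the 0 h libraries, and the 12 h libraries lay far below both. The ratios were 1.2002 at 5 h and 0.397 at 12 h, and the 12 h ratio was the lowest of the 58. On the TMM scale the log2 fold changes were 0.38 ± 0.09 SE at 5 h and -1.22 ± 0.09 SE at 12 h, each against 0 h. MYC lies at chromosome 8, 127735434 to 127741434 (+ strand), GRCh38. It passed the 5 h limit of the rule narrowly: with chromosome Y copies of pseudoautosomal genes removed from the totals, MYC was the 1 gene of the 58 that dropped out.

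FOSL2 encodes Fra-2, a subunit of AP-1, and lies at chromosome 2, 28392448 to 28417312 (+ strand). FOSL2 had 7.47, 13.9 and 10.1 CPM at 0 h, 36.04, 31.6 and 33.6 CPM at 5 h, and 4.97, 5.88 and 5.66 CPM at 12 h. The 5 h libraries stood well clear of the others, and the 0 h libraries were spread widely but stayed above the 12 h libraries. The ratios were 3.22 at 5 h and 0.525 at 12 h, and the 5 h ratio was the highest of the 58. On the TMM scale the log2 fold changes were 1.82 ± 0.16 SE at 5 h and -0.78 ± 0.21 SE at 12 h, each against 0 h. JUN, the other AP-1 subunit among the 58, was low and noisy. JUN had 11.1, 10.05 and 12.04 CPM at 0 h, 12.1, 17.6 and 16.2 CPM at 5 h, and 6.16, 9.72 and 9.58 CPM at 12 h. The lowest 5 h library of JUN lay only just above the highest 0 h library. Its ratios were 1.38 at 5 h and 0.768 at 12 h.

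PER2, a repressor of the circadian clock, lies at chromosome 2, 238244038 to 238290102 (- strand). PER2 had 51.2, 46.9 and 46.5 CPM at 0 h, 61.7, 66.7 and 69.4 CPM at 5 h, and 19.9, 21.05 and 21.8 CPM at 12 h. Its 12 h libraries were tightly grouped, at less than any 0 h library by a wide margin. The ratios were 1.37 at 5 h and 0.434 at 12 h. BTG2, an antiproliferative co-regulator that recruits the CCR4-NOT deadenylase, had the largest 5 h ratio among transcription regulators after FOSL2. BTG2 had 20.8, 22.8 and 19.7 CPM at 0 h, 37.8, 42.7 and 40.7 CPM at 5 h, and 15.2, 16.1 and 18.1 CPM at 12 h. Its 5 h libraries were clear of the rest, while 1 of the 12 h libraries came close to the lowest 0 h library. The ratios were 1.91 at 5 h and 0.7803 at 12 h.

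BCOR, a co-repressor that works with Polycomb proteins, and BEND3, a DNA-binding repressor, were lower at 12 h by larger factors than they were higher at 5 h. BCOR had 169, 155 and 162 CPM at 0 h, 184, 201 and 205 CPM at 5 h, and 107, 116 and 106 CPM at 12 h. BEND3 had 36.4, 30.1 and 33.1 CPM at 0 h, 42.1, 42.5 and 39.98 CPM at 5 h, and 19.9, 20.3 and 17.99 CPM at 12 h. For both genes the 12 h libraries stood clear of the rest. The ratios were 1.21 at 5 h and 0.675 at 12 h for BCOR and 1.25 at 5 h and 0.584 at 12 h for BEND3. The other regulators had ratios of 1.295 at 5 h and 0.693 at 12 h for E2F6, a repressor of the E2F family, 1.21 at 5 h and 0.686 at 12 h for NFIX, a nuclear factor I member, and 1.201 at 5 h and 0.694 at 12 h for INO80, the ATPase of a chromatin remodeller. GTF2H1, a subunit of the general factor TFIIH, had ratios of 1.28 at 5 h and 0.755 at 12 h.

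FOXO3B is a copy of the transcription factor gene FOXO3, annotated as a processed pseudogene in GENCODE 29, so its reads may be split wrongly between the copies. Its ratios were 1.202 at 5 h and 0.794 at 12 h. FOXO3 itself averaged 60.1, 58.5 and 57.2 CPM at 0 h, 5 h and 12 h. FOXO3B therefore showed the pattern while the gene it resembles stayed within the range of its 0 h libraries on average.

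Of the 58, 4 were zinc-finger genes whose symbol starts with ZNF (6.90%), against 3.33% of the genes of mean CPM 10 or more. ZNF26 had 32.4, 34.9 and 35.5 CPM at 0 h, 46.4, 40.1 and 41.8 CPM at 5 h, and 22.3, 19.9 and 19.6 CPM at 12 h. Its groups were well apart. ZNF420 had 22.01, 19.1 and 23.96 CPM at 0 h, 29.8, 24.4 and 28.4 CPM at 5 h, and 16.3, 14.96 and 14.8 CPM at 12 h. ZNF845 had 20.4, 22.01 and 19.9 CPM at 0 h, 32.01, 22.3 and 22.7 CPM at 5 h, and 14.9, 12.4 and 19.2 CPM at 12 h. ZNF845 had 1 of its 5 h libraries well above the other two. ZNF613 had 7.34, 9.73 and 10.2 CPM at 0 h, 12.5, 11.2 and 12.1 CPM at 5 h, and 7.11, 6.52 and 7.11 CPM at 12 h. The ratios were 1.25 at 5 h and 0.6003 at 12 h for ZNF26, 1.27 at 5 h and 0.708 at 12 h for ZNF420, 1.24 at 5 h and 0.746 at 12 h for ZNF845 and 1.31 at 5 h and 0.759 at 12 h for ZNF613. The 408 other ZNF genes tested had a median log2 fold change of 0.12 at 5 h against 0 h. Of these 408, edgeR called 107 higher and 47 lower at 5 h, where 24.9% and 24.8% of all genes were called. For 12 h against 0 h it called 93 of them higher and 75 lower, where 26.3% and 24.8% of all genes were called.

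**Figure D3:**
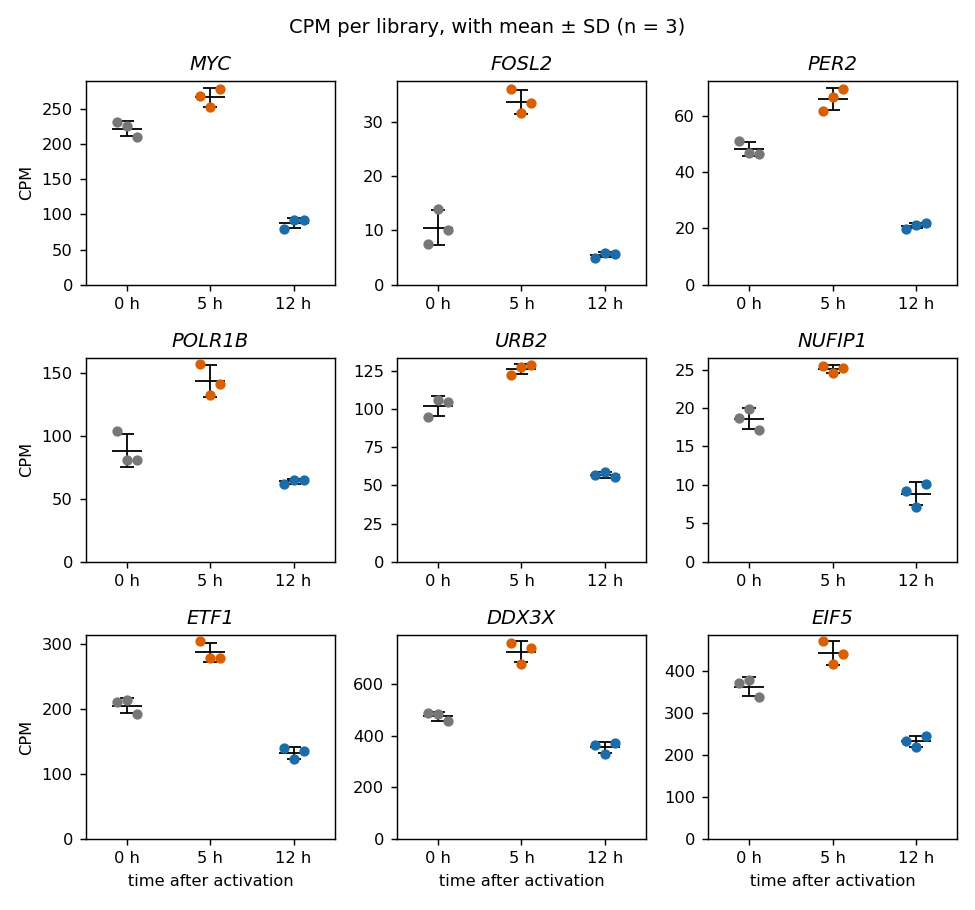
CPM of 9 of the 58 genes in each library (points) at 0 h, 5 h and 12 h, with the mean and SD of 3 libraries (black). In each panel the 5 h points lie above and the 12 h points below the 0 h points, by the widest margins for FOSL2 at 5 h and for MYC, PER2 and NUFIP1 at 12 h.

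MYC, FOSL2 and JUN were 3 of 24 tested genes in a list of immediate-early transcription factors. Among the 21 others, edgeR called 18 higher and 1, KLF6, lower at 5 h, where 24.9% and 24.8% of all genes tested were called. The call of KLF6 was lost with DESeq2's Wald test and without 0 h replicate 1, 0 h replicate 2 or 5 h replicate 1, and without 12 h replicate 1 the list had 2 lower calls. At 12 h against 0 h it called 15 higher, where 26.3% of all genes were called higher. From 5 h to 12 h it called 15 of the 21 lower, where 18.0% of all genes were called lower. KLF10, a repressor induced by growth factors, was at 112 CPM at 5 h against 23.5 CPM at 0 h, and at 20.6 CPM at 12 h, with no call for 12 h against 0 h (log2 -0.08 ± 0.13 SE, edgeR adjusted p = 0.633). FOS was at 16.5 CPM at 5 h against 1.0503 CPM at 0 h and stayed higher at 12 h, at 7.84 CPM. JUNB, another AP-1 gene, was at 77.4 CPM at 5 h against 24.4 CPM at 0 h, and at 46.6 CPM at 12 h. Within AP-1, the FOSL2 and JUN means at 12 h were thus under 0 h, while the FOS, FOSB, JUNB and JUND means were above it. Of these, JUN (log2 -0.23 ± 0.19 SE, edgeR adjusted p = 0.333) and FOSB (log2 0.74 ± 0.39 SE, edgeR adjusted p = 0.123) were not called at 12 h against 0 h.

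MYC was also 1 of 12 tested genes of its own network. Of the 11 others, edgeR called 1 higher and 5 lower at 5 h, where 24.9% and 24.8% of all genes tested were called. The 5 were 3 without 0 h replicate 1 and 3 without 5 h replicate 1. MYCN, a close relative, was at 14.8 CPM at 5 h against 10.5 CPM at 0 h (log2 0.62 ± 0.17 SE, edgeR adjusted p = 0.00475). It was back at 10.6 CPM at 12 h. Between 12 h and 0 h, 3 of the 11 were called higher and 3 lower, near the 26.3% and 24.8% of all genes. MAX, the partner that MYC needs to bind DNA, was at 184 CPM at 12 h against 127 CPM at 0 h (log2 0.65 ± 0.09 SE, edgeR adjusted p = 5.33e-06). MXD1, a competitor of MYC for MAX, was at 16.3 CPM at 12 h against 10.6 CPM at 0 h (log2 0.72 ± 0.16 SE, edgeR adjusted p = 8.73e-04). Other genes of the list did not all move this way. MXD3 and MXD4 were among those called lower at 5 h (log2 -0.98 ± 0.18 SE and -1.17 ± 0.14 SE). At 12 h against 0 h, MXI1 was called higher (log2 0.43 ± 0.14 SE). MXD3 (log2 0.38), MXD4 (-0.29) and MNT (0.15) were not called at 12 h against 0 h.

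The second group, 13 genes of ribosome production, had 5 h ratios from 1.24 to 1.63 (median 1.35) and 12 h ratios from 0.476 to 0.796 (median 0.739). POLR1B and POLR1F encode subunits of RNA polymerase I. POLR1B had 104, 80.9 and 80.7 CPM at 0 h, 157, 133 and 141 CPM at 5 h, and 61.6, 65.5 and 64.7 CPM at 12 h. POLR1F had 88.3, 77.3 and 66.2 CPM at 0 h, 119, 103 and 111 CPM at 5 h, and 59.2, 56.3 and 65.6 CPM at 12 h. In POLR1B 1 of the 0 h libraries stood above the other two, and in POLR1F the highest 12 h library came close to the lowest 0 h library. The ratios were 1.63 at 5 h and 0.722 at 12 h for POLR1B and 1.44 at 5 h and 0.781 at 12 h for POLR1F. POLR1B lies at chromosome 2, 112541915 to 112577150 (+ strand). PWP1 and DHX33, both known to act on transcription of ribosomal DNA, had ratios of 1.26 at 5 h and 0.664 at 12 h and of 1.402 at 5 h and 0.702 at 12 h. DHX33 overlaps C1QBP on the same strand, which was at 200 CPM at 5 h and 184 CPM at 12 h, against 187 CPM at 0 h. The part of C1QBP in the DHX33 values was not tested.

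Factors of the small subunit were UTP4 and WDR43, components of the complex that processes the small-subunit precursor, and PNO1, a late assembly factor. UTP4 had 77.8, 68.4 and 70.98 CPM at 0 h, 106, 98.8 and 105 CPM at 5 h, and 54.7, 59.1 and 54.9 CPM at 12 h. WDR43 had 138, 134 and 130.2 CPM at 0 h, 173, 165 and 185 CPM at 5 h, and 102, 91.2 and 105 CPM at 12 h. In both genes the 5 h libraries were well above 0 h and the 12 h libraries below it, with little spread within a time. The ratios were 1.43 at 5 h and 0.777 at 12 h for UTP4, 1.299 at 5 h and 0.741 at 12 h for WDR43 and 1.33 at 5 h and 0.681 at 12 h for PNO1. UTP4 overlaps CHTF8 on the opposite strand, which was at 36.6 CPM at 5 h and 41.3 CPM at 12 h, against 85.5 CPM at 0 h. It also overlaps SNTB2 on the same strand, which was at 25.7 CPM at 5 h and 36.5 CPM at 12 h, against 42.4 CPM at 0 h. Both neighbours had means below 0 h at both times, and their part in the UTP4 values was not tested.

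Factors of the large subunit were DDX18, an RNA helicase, MAK16, RPF2, which helps to place the 5S ribosomal RNA, and URB2. DDX18 had 255, 243 and 229 CPM at 0 h, 344, 298 and 330.0 CPM at 5 h, and 183, 183 and 212 CPM at 12 h. MAK16 had 119.8, 108 and 101 CPM at 0 h, 184, 155 and 179 CPM at 5 h, and 76.3, 78.9 and 90.1 CPM at 12 h. URB2 had 94.7, 106 and 105 CPM at 0 h, 122, 128 and 129 CPM at 5 h, and 56.6, 58.7 and 55.3 CPM at 12 h. URB2 had its libraries of each time within a narrow range and the second lowest 12 h ratio of this group. The ratios were 1.34 at 5 h and 0.796 at 12 h for DDX18, 1.57 at 5 h and 0.744 at 12 h for MAK16, 1.24 at 5 h and 0.557 at 12 h for URB2 and 1.39 at 5 h and 0.741 at 12 h for RPF2. URB2 lies at chromosome 1, 229626234 to 229660199 (+ strand). The neighbour TAF5L, which starts within 1 kb of URB2 on the opposite strand, was at 51.0 CPM at 5 h against 70.0 CPM at 0 h and at 39.5 CPM at 12 h, lower at both times.

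NUFIP1, which assembles the particles that modify ribosomal RNA, and USP36, a nucleolar deubiquitinating enzyme, complete the group. NUFIP1 had 18.7, 19.9 and 17.2 CPM at 0 h, 25.5, 24.6 and 25.2 CPM at 5 h, and 9.24, 7.16 and 10.2 CPM at 12 h. USP36 had 114, 122 and 120.2 CPM at 0 h, 155, 156 and 157 CPM at 5 h, and 82.2, 94.1 and 87.1 CPM at 12 h. The 12 h libraries of NUFIP1 were far below 0 h, and the 5 h libraries of USP36 agreed closely with each other. The ratios were 1.35 at 5 h and 0.476 at 12 h for NUFIP1, the lowest at 12 h in this group, and 1.31 at 5 h and 0.739 at 12 h for USP36. USP36 was the 1 gene of the 58 in a list of 42 ubiquitin-specific proteases. Of its 41 others, edgeR called 21 higher and 10 lower at 5 h, where 24.9% and 24.8% of all genes tested were called. For 12 h against 0 h it called 12 higher and 10 lower, near the 26.3% and 24.8% of all genes. The count called lower at 12 h in the whole list, 11, was 7 without 0 h replicate 2 and 7 without 12 h replicate 2.

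In a list of 44 ribosome biogenesis genes, POLR1B, UTP4, WDR43 and DDX18 were among the 58. Of the 40 others, edgeR called 25 higher and 1, NOP56, lower at 5 h against 0 h, with a median log2 fold change of 0.41, where 24.9% of all genes tested were called higher. At 12 h against 0 h, 9 of the 40 were called higher and 8 lower, with a median of -0.01, near the 26.3% and 24.8% of all genes tested. At 12 h against 5 h, 29 were called lower, with a median of -0.51, where 18.0% of all genes tested were called lower.

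**Figure D4:**
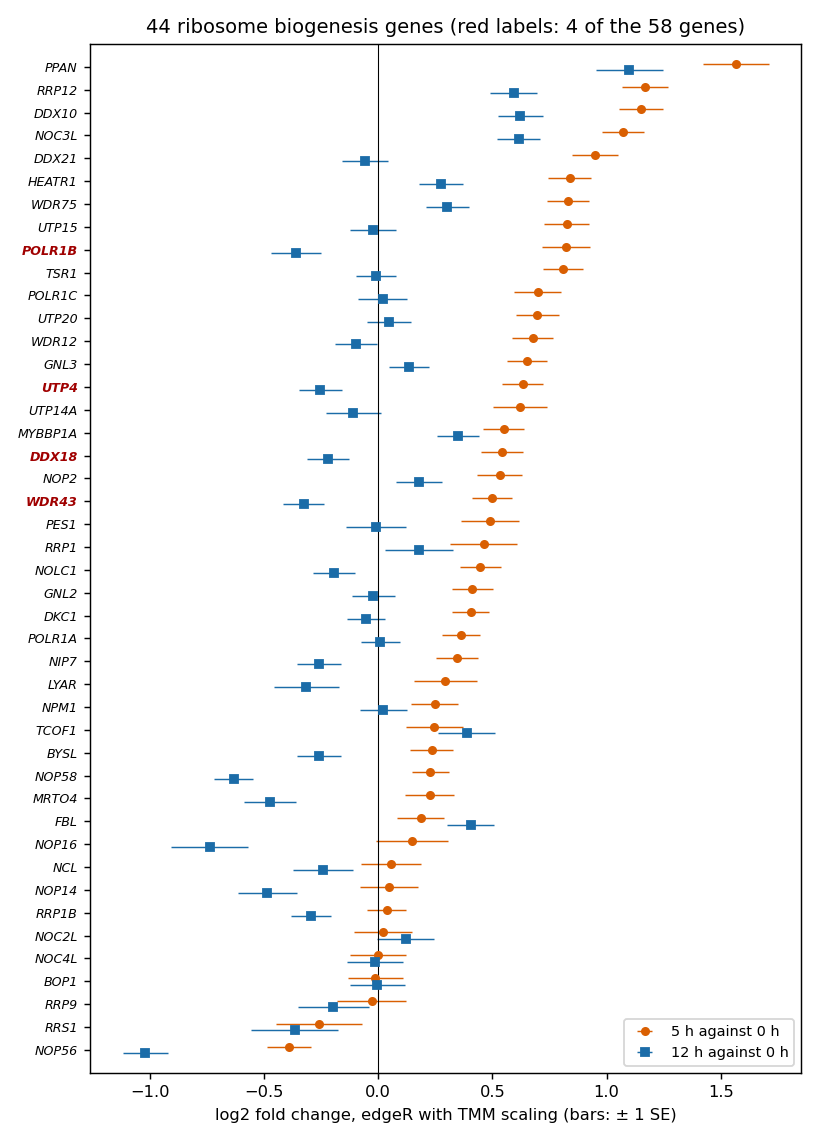
Log2 fold changes with SE bars from edgeR for 44 ribosome biogenesis genes, 5 h against 0 h (circles) and 12 h against 0 h (squares), ordered by the 5 h value. Most circles lie right of 0 and the squares centre near it, with POLR1B, UTP4, WDR43 and DDX18 (red labels) left of 0 at 12 h.

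Of the list, 6 genes were called higher at 5 h and lower at 12 h than at 0 h: POLR1B, UTP4 and WDR43 and, outside the 58, NOP58, BYSL and NIP7. The core nucleolar protein gene NOP58 was at 222 CPM at 5 h against 206 CPM at 0 h, and at 124 CPM at 12 h, so its 5 h ratio of 1.08 was under the limit. BYSL and NIP7 had 5 h ratios of 1.08 and 1.17 and 12 h ratios of 0.771 and 0.773. Another 7 were called higher at both times. The helicase gene DDX10 was at 122 CPM at 5 h and 85.4 CPM at 12 h, against 59.9 CPM at 0 h. Another 16 were called higher at 5 h and not called at 12 h, among them DDX21, at 689 CPM at 5 h and 346 CPM at 12 h against 388 CPM at 0 h. The other subunit genes of RNA polymerase I in the list, POLR1A and POLR1C, had 12 h ratios of 0.933 and 0.941, against 0.722 for POLR1B.

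The 8 genes of translation and tRNA modification had 5 h ratios from 1.22 to 1.53 and 12 h ratios from 0.640 to 0.799. ETF1 encodes eRF1, the factor that recognises stop codons, and lies at chromosome 5, 138506095 to 138543300 (- strand). ETF1 had 211, 214 and 193 CPM at 0 h, 305, 279.7 and 279 CPM at 5 h, and 139, 123 and 135 CPM at 12 h. Its groups were far apart, with the 12 h libraries well under 0 h. The ratios were 1.4004 at 5 h and 0.643 at 12 h. EIF5, which triggers GTP hydrolysis by eIF2 at the start codon, had a similar 12 h ratio and a smaller 5 h ratio. EIF5 had 373, 380.2 and 338 CPM at 0 h, 474, 417 and 441 CPM at 5 h, and 234, 219 and 246 CPM at 12 h. The 12 h libraries were far below the rest, and the 5 h libraries were nearer to 0 h. The ratios were 1.22 at 5 h and 0.6401 at 12 h.

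DDX3X, an RNA helicase that helps ribosomes to scan structured leaders, and EIF4G2, an eIF4G relative that acts without binding the cap, had the largest CPM of the 58 at 5 h. DDX3X had 488, 483 and 456 CPM at 0 h, 760.4, 679.6 and 739 CPM at 5 h, and 364, 329.8 and 371 CPM at 12 h. EIF4G2 had 1488, 1506 and 1336 CPM at 0 h, 1890.2, 1722 and 1769 CPM at 5 h, and 1187, 1105 and 1169 CPM at 12 h. In both genes the libraries of a time lay close together, and the 5 h libraries of DDX3X were far above 0 h. The ratios were 1.53 at 5 h and 0.746 at 12 h for DDX3X and 1.24 at 5 h and 0.799 at 12 h for EIF4G2. Per kb of the longest annotated transcript, the 4 highest mean levels of the 58 at 5 h were 448 CPM for EIF4G2, 113 for MYC, 105 for DDX3X and 85.4 for DDX18. Reads of EIF4G2 could be shared with CTR9, which overlaps it on the opposite strand and was at 178 CPM at 5 h against 156 CPM at 0 h, and at 135 CPM at 12 h. The part of CTR9 in the EIF4G2 values was not tested.

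Of the 8, 4 act on tRNA. PUS7 makes pseudouridine, QTRT2 is a subunit of the enzyme that inserts queuine, YRDC makes the precursor of t6A at the anticodon loop, and ALKBH8 methylates the wobble uridine. PUS7 had 44.2, 42.3 and 32.2 CPM at 0 h, 59.7, 52.8 and 61.2 CPM at 5 h, and 28.9, 24.3 and 26.99 CPM at 12 h. PUS7 had 1 low library at 0 h, and its groups did not overlap, as the rule requires of every gene kept. The ratios were 1.46 at 5 h and 0.676 at 12 h for PUS7, 1.24 at 5 h and 0.774 at 12 h for QTRT2, 1.39 at 5 h and 0.75001 at 12 h for YRDC and 1.31 at 5 h and 0.75997 at 12 h for ALKBH8. YRDC is overlapped on the opposite strand by C1orf122, which was at 12.2 CPM at 5 h against 18.9 CPM at 0 h and at 11.6 CPM at 12 h.

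Signalling and membrane proteins were 7 of the 58, with 5 h ratios from 1.27 to 2.07. RGS3, which speeds GTP hydrolysis by G-protein alpha subunits, had the second largest 5 h ratio of the 58. RGS3 had 17.2, 15.9 and 14.7 CPM at 0 h, 26.8, 35.1 and 37.1 CPM at 5 h, and 10.2, 11.9 and 14.4 CPM at 12 h. Its 5 h libraries were clear of the rest, while 1 of its 12 h libraries came close to 0 h. FLT1, which encodes a receptor for vascular endothelial growth factor, was steady within 0 h and within 5 h. FLT1 had 114, 108 and 115 CPM at 0 h, 185, 187 and 189 CPM at 5 h, and 103, 84.7 and 81.7 CPM at 12 h. At 12 h 1 of its libraries lay near the 0 h range and the other two were lower. The ratios were 2.07 at 5 h and 0.7603 at 12 h for RGS3 and 1.66 at 5 h and 0.796 at 12 h for FLT1.

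NCS1 encodes a calcium sensor, and CD72 a receptor best known from B cells. NCS1 had 23.5, 28.7 and 25.5 CPM at 0 h, 43.1, 40.97 and 38.9 CPM at 5 h, and 17.1, 22.1 and 20.03 CPM at 12 h. CD72 had 6.27, 7.97 and 7.303 CPM at 0 h, 11.97, 9.85 and 11.3 CPM at 5 h, and 5.92, 3.63 and 3.92 CPM at 12 h. CD72 had few counts, and 1 of its 12 h libraries lay just under the lowest 0 h library. The ratios were 1.58 at 5 h and 0.762 at 12 h for NCS1 and 1.54 at 5 h and 0.625 at 12 h for CD72. CD72 overlaps TESK1 on the opposite strand, and TESK1 was at 91.8 CPM at 5 h against 46.2 CPM at 0 h and at 62.8 CPM at 12 h, so reads of TESK1 could add to the 5 h value of CD72. The part of TESK1 in that value was not tested. The kinase gene RPS6KA3, which encodes RSK2, had ratios of 1.27 at 5 h and 0.748 at 12 h, the ubiquitin ligase gene NEDD4 1.27 at 5 h and 0.692 at 12 h, and the phospholipid scramblase gene PLSCR1 1.42 at 5 h and 0.773 at 12 h.

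The 14 remaining genes had other roles, with 5 h ratios from 1.202 to 1.47 and 12 h ratios from 0.528 to 0.791. TPST2 sulphates tyrosines of secreted proteins, and TDG removes mispaired thymine and oxidised methylcytosine from DNA. TPST2 had 54.7, 63.8 and 60.6 CPM at 0 h, 86.5, 92.4 and 85.01 CPM at 5 h, and 38.6, 38.3 and 31.8 CPM at 12 h. TDG had 157, 157 and 132 CPM at 0 h, 202, 188 and 205 CPM at 5 h, and 121, 106 and 125 CPM at 12 h. The TPST2 groups were far apart, and 1 of the 12 h libraries of TDG came close to its lowest 0 h library. The ratios were 1.47 at 5 h and 0.607 at 12 h for TPST2 and 1.34 at 5 h and 0.791 at 12 h for TDG. NT5DC3 and SPAG1, an assembly factor of ciliary dynein, had low counts and low 12 h ratios. NT5DC3 had 16.8, 12.6 and 14.99 CPM at 0 h, 21.9, 16.9 and 18.5 CPM at 5 h, and 9.95, 6.84 and 6.68 CPM at 12 h. SPAG1 had 12.01, 10.2 and 11.8 CPM at 0 h, 16.9, 15.9 and 13.1 CPM at 5 h, and 7.58, 5.98 and 7.55 CPM at 12 h. In both genes all 12 h libraries were under every 0 h library, as the rule requires, and the ratios were 1.29 at 5 h and 0.528 at 12 h for NT5DC3 and 1.35 at 5 h and 0.621 at 12 h for SPAG1. SPAG1 overlaps RNF19A on the opposite strand, which was at 309 CPM at 5 h against 40.8 CPM at 0 h and at 98.9 CPM at 12 h, so reads of RNF19A could reach SPAG1. The part of RNF19A in the SPAG1 values was not tested.

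Mitochondrial RNA factors were FASTKD2, a protein of mitochondrial RNA granules, with ratios of 1.33 at 5 h and 0.756 at 12 h, and TFB2M, a mitochondrial transcription factor, with 1.22 at 5 h and 0.665 at 12 h. In protein folding and glycosylation, the endoplasmic reticulum co-chaperone gene DNAJC3 had 1.28 at 5 h and 0.712 at 12 h and the mannose phosphate enzyme gene PMM2 1.29 at 5 h and 0.686 at 12 h. CNOT10, a subunit of the CCR4-NOT deadenylase complex, had 1.21 at 5 h and 0.678 at 12 h. CARNMT1, a carnosine methyltransferase gene, had 1.298 at 5 h and 0.765 at 12 h. MINDY3, a deubiquitinase gene, had 1.202 at 5 h and 0.7398 at 12 h, and AMMECR1 had 1.23 at 5 h and 0.729 at 12 h. ST7 had 1.22 at 5 h and 0.755 at 12 h and SYNC, which encodes an intermediate filament partner, 1.28 at 5 h and 0.641 at 12 h. SYNC had the widest spread at 12 h, with 8.29, 1.496 and 7.11 CPM, a coefficient of variation of 64.5%, and the lowest of these rests on 14 counts. SYNC also lies over RBBP4, which is on the opposite strand at 657 CPM at 5 h and 590.3 CPM at 12 h, against 748 CPM at 0 h.

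The spread between libraries was small for most of the 58. The rule favours this, since groups with modest ratios must be tight to stay without overlap. No spread over other genes is set beside it. The median coefficient of variation was 7.06% at 0 h, 5.91% at 5 h and 8.76% at 12 h. Replicate 1 was the highest of the 5 h libraries for 32 of the 58 genes, replicate 2 for 10 and replicate 3 for 16. Replicate 2 was the lowest of the 12 h libraries for 26 genes, replicate 1 for 18 and replicate 3 for 14. The same counts over all genes are not given here, so these are a description only. For 9 genes the lowest 5 h library was within 5% of the highest 0 h library, and for 10 the highest 12 h library was within 5% of the lowest 0 h library.

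In annotated sequence outside the promoter, the 57 genes with an annotated 3′ untranslated region had a median length of 1784 bases for the longest one, against 1451 bases for 9725 genes of mean CPM 10 or more. The pentamer ATTTA, the core of AU-rich elements, occurred in 53 of 57 (93.0%), against 75.5%. Per kb, the median was 2.72 in the 57 and 1.75 in the 9725. MYC had 8.40 per kb and BTG2 0.924 per kb. The longer core TTATTTA followed by 2 bases that are each A or T occurred in 13 of 57 (22.8%), against 23.0%. The 13 were EIF5, TDG, BCOR, FLT1, WDR43, QTRT2, YRDC, NEDD4, ZNF26, FOSL2, RGS3, ZNF845 and MINDY3. The median coding length was 1599 bases, against 1446. These are descriptions without a test, and the search does not show that any protein binds there.

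The 58 lie on 19 chromosomes, with 8 genes on chromosome 2 and 6 on chromosome 1. The closest pair was TDG and NT5DC3 on chromosome 12, 124607 bases apart, followed by WDR43 and FOSL2 on chromosome 2, 477331 bases apart. Of the 58, 13 overlap another gene of the table, and whether strand was used in counting is not known here, so shared reads cannot be told apart for them. Another 6 start within 1 kb of a gene on the opposite strand that is in the table, and 0 of those neighbours were among the 58. For example, C12orf73, next to TDG, was at 20.003 CPM at 5 h against 23.2 CPM at 0 h and at 25.7 CPM at 12 h. HPS5, next to GTF2H1, was at 52.0 CPM at 5 h against 46.1 CPM at 0 h and at 36.7 CPM at 12 h, so its 12 h ratio of 0.797 was within the limit and its 5 h ratio of 1.13 was not. WDR92, next to PNO1, had ratios of 0.726 at 5 h and 0.574 at 12 h.

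**Figure D5:**
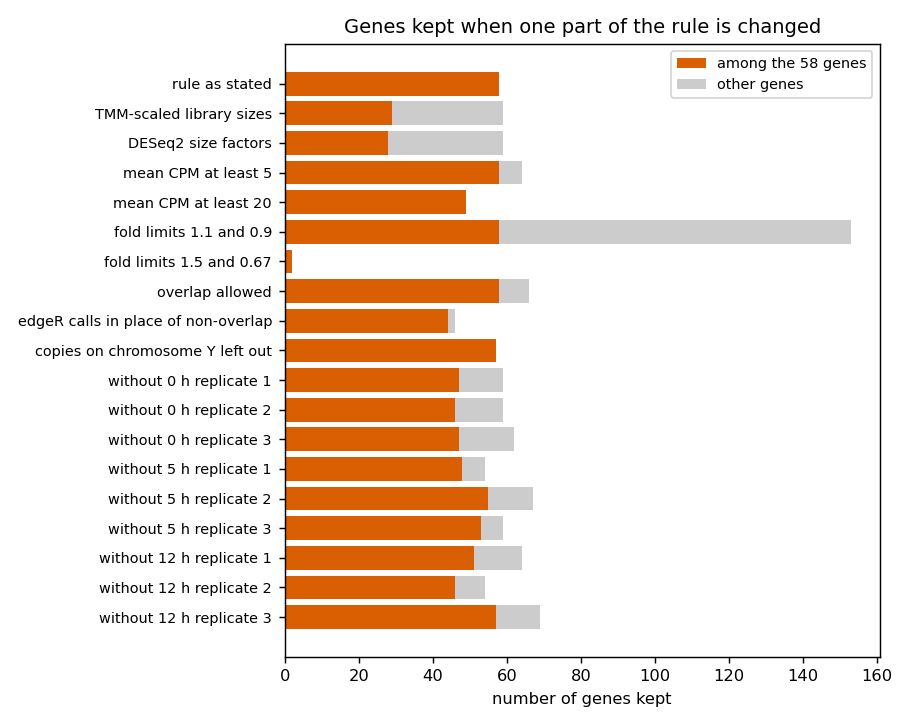
Number of genes kept (horizontal axis) when 1 part of the rule is changed, split into those among the 58 (orange) and other genes (grey). Other scalings keep 59 genes, of which 29 (TMM) or 28 (DESeq2 size factors) are among the 58, and fold limits of 1.5 and 0.67 keep 2.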

How the data were processed

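Messenger RNA counts of 9 libraries were used, 3 each at 0 h, 5 h and 12 h. The deposited gene counts are whole numbers, and the authors' deposited log2 values entered 1 alternative. Per the submitters' processing notes, cutadapt, RSEM and DESeq2 were used with GRCh38.p13. The sources used here do not give the role of each tool, the annotation release or the use of strand in counting. Libraries were grouped by the labels. CPM used column totals. Tests used edgeR 4.0.16 (R 4.3.3), with TMM, filterByExpr, 1 quasi-likelihood fit over all 9 libraries and Benjamini-Hochberg adjustment over 12036 genes at 0.05, and were tested on simulated data. DESeq2 1.42.0 and limma 3.58.1 were alternatives. Totals of 4222258 to 9359187 counts set the precision, and PCR reads without molecular identifiers are not independent molecules.

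The 58 genes and the lists were chosen with earlier results of these data known, and roles were assigned after the values were seen. Genes named with values per library were the 12 with the highest 5 h CPM, the 12 with the largest 5 h ratio, the 12 with the smallest 12 h ratio, and those in a list. The ribosome biogenesis, immediate-early, MYC network, ubiquitin-specific protease and ZNF lists held any of the 58. Coordinates are from GENCODE 29, 3′ untranslated regions too, and promoters from RefSeq. Ribosome profiling and small RNA libraries are not analysed here.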

Additional observations from a re-analysis of the deposited data

How the results depend on the processing

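The number of genes kept by the rule stayed between 46 and 66 under other scalings, CPM minimums, without the non-overlap condition, with edgeR calls in its place, and without the chromosome Y copies. Which genes they were did not stay: 29 of 58 were kept with TMM and 28 with DESeq2 size factors. Fold limits of 1.1 and 0.9 kept 153 genes, and limits of 1.5 and 0.67 kept 2. Leaving out 1 library at a time kept 54 to 69 genes. It left 5139 to 6306 genes called at 5 h against 0 h (5985 with all libraries), 5517 to 6285 at 12 h against 0 h (6145) and 3284 to 4392 at 12 h against 5 h (4340). Of the 58, it left 51 to 58, 30 to 43 and 57 to 58 called in these comparisons. Across 1485 log2 fold changes of named genes under alternatives, 0 changed sign, 68 lost the call and 7 gained it. Of the 68 lost calls, 54 (in 9 genes) were for 12 h against 0 h and 14 (in 4 genes) for 5 h against 0 h. The 7 gained calls (in 3 genes) were for 12 h against 0 h. Of the counts of list genes called, 15 moved by over 1.5 times: 1 with DESeq2's Wald test, where the immediate-early list had 0 lower calls at 5 h, and 14 when 1 library was left out.

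Same-numbered libraries did not deviate together in every pair (correlations from -0.273 to 0.347, and from -0.439 to 0.362 for differently numbered ones). Between 5 h and 12 h the same-numbered correlations were all positive (0.337, 0.347 and 0.0552). The numbers were not taken as pairs, although these values cannot exclude that some libraries were paired. With the replicate block, 5981, 6176 and 4285 genes and 56, 40 and 58 of the 58 were called at 5 h against 0 h, 12 h against 0 h and 12 h against 5 h. Depth limits the low genes most: the lowest 12 h value of SYNC rests on 14 counts, and groups of 3 libraries do not resolve which side of a fold limit a gene near it belongs to.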
